A study of Danio rerio with 6 samples.

Results

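The lncRNAs described here are those named at genes for cell adhesion and axon guidance. They were chosen by the gene name that the deposited table gives each assembled lncRNA, which had to begin with the symbol of a cadherin, protocadherin, catenin, integrin, neurexin, neuroligin, contactin, Eph receptor, ephrin, semaphorin, plexin, neuropilin, Slit, netrin or related receptor, receptor tyrosine phosphatase, immunoglobulin or leucine-rich repeat adhesion molecule, adhesion G protein-coupled receptor or teneurin. This rule took 149 of the 8363 assembled lncRNAs, at 133 locus identifiers and 84 genes. Another 3055 lncRNAs carry the name of some other gene and serve as the comparison. The rule reads names only and no measured value. The table calls this the nearest gene. Its distance, and whether a transcript lies in an exon or an intron of it, were not analysed here.

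Total RNA was sequenced from the zebrafish line ZF4, which consists of fibroblast-like cells from embryos. The control group was 3 cultures at 28°C, and the cold acclimated group was 3 cultures held at 18°C for 30 days in the same medium. All cultures are of a single cell line and no genotype or drug differs between them. The table lists only lncRNAs, so the identity of the cells could not be checked against protein-coding fibroblast markers.

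The level of each lncRNA is given in FPKM, a fragment count divided by transcript length and by sequencing depth, and the authors deposited a single mean for each group. No value belongs to a single culture, so the spread between the 3 cultures is unknown. No test between the groups could be made from these means, and they give the differences below no replicate check. The study's own statistical comparison of the groups was not used. The depth behind each value is unknown from the table. Differences are given as the log2 ratio of the cold mean over the control mean after adding 0.1 FPKM to each, so that differences of weakly expressed transcripts come out too small. They were counted for transcripts above 0.5 FPKM in at least 1 group, and a transcript was counted as higher or lower when the means differed by more than 2-fold on that scale.

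Cadherins and protocadherins join neighbouring cells through calcium-dependent contacts, and catenins tie cadherins to the actin skeleton. Integrins hold cells to the extracellular matrix. Ephrins, semaphorins, Slits and netrins are guidance cues that steer growing axons and migrating cells, and Eph receptors, plexins, neuropilins and UNC5 proteins are their receptors. Fibroblasts use many of these proteins for attachment and migration, while a good number of the family members are best known from the nervous system.

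The study measured the lncRNAs MSTRG.26470.1 at negr1 and MSTRG.30168.2 at epha3 by qRT-PCR in replicates, with primer pairs of its own. It reported that the trends of the lncRNAs and target genes it selected matched its sequencing data. Their sequences are shown because these members, which lie on opposite sides of the cold response, are the ones in this group for which a designed sequence is at hand. They are printed 5′ to 3′, with the 5 bases at the 3′ end, from which the polymerase extends, in capitals.
MSTRG.26470.1 forward: ggtctccagaaatgtagACAGG
MSTRG.26470.1 reverse: ggccattgcttagtgagATAGA
MSTRG.30168.2 forward: aaccttggtctgcgacTTAAT
MSTRG.30168.2 reverse: cctctgacctggtgctTTAAT
Of these primers, both for MSTRG.26470.1 are 22 nt long and both for MSTRG.30168.2 are 21 nt long, with 42.9% to 50.0% G and C. The primer table also covers the mRNAs of 2 genes named at members. For negr1, the pair detects the mRNA at whose locus MSTRG.26470.1 is named.
negr1 mRNA forward: cctgttggatgggatcTCAAA
negr1 mRNA reverse: gatacaatggacacacgAGGAT
For ptprsa, at which 4 of the lncRNAs are named, the pair is the following.
ptprsa mRNA forward: gagtgtgtggcgtcAAATG
ptprsa mRNA reverse: gtgggcaggatggAGAAA

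The lncRNAs at adhesion and guidance genes were mostly short and had few exons. A single exon was listed for 87 of the 149 (58.4%, 95% confidence interval 50.4% to 66.0%, Wilson), 2 exons for 45 and 3 or more for 17. Among the other lncRNAs with a named gene, 60.2% had a single exon, and of all assembled lncRNAs 70.2% did. The intervals cover counting error over transcripts only, and transcripts at the same gene are not independent. The median length was 581 nt, with a 95% interval of the median from 427 to 731 nt by binomial order statistics and a range from 202 to 8061 nt. The other lncRNAs with a named gene had a median of 500 nt. Members with 2 or more exons had a median of 1018 nt, against 706 nt for the others with a named gene. Among the former are 8 transcripts of 1316 to 1391 nt at a single itgav locus. The longest members were MSTRG.2495.1 at ptprga with 8061 nt, MSTRG.5426.1 at itga9 with 6773 nt and MSTRG.30169.1 at epha3 with 6630 nt. The members with the most exons, 5 each, were MSTRG.5300.1 and MSTRG.5300.2 at pcdh15a, MSTRG.4289.1 at ptprea and MSTRG.8642.1 at ptprub. Members were found on 24 of the 25 chromosomes, and 3 lay on an unplaced scaffold.

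Their levels were low in both groups. The median of the authors' means was 1.27 FPKM in control and 0.574 FPKM in cold acclimated cells, with quartiles of 0.618 and 2.099 FPKM in the former and 0.220 and 1.46 FPKM in the latter. For the other lncRNAs with a named gene the medians were 1.16 and 0.811 FPKM. A mean over both groups above 10 FPKM was reached by 4 members. They were MSTRG.18210.1 at nrp1a, a co-receptor for class 3 semaphorins and VEGF, MSTRG.24693.1 at efnb1, a membrane-bound ephrin ligand, MSTRG.26712.1 at cntn4, a contactin of axons, and MSTRG.30523.1 at itgbl1, which resembles the integrin beta chains. The nrp1a lncRNA had 18.8 FPKM in control and 22.5 FPKM in cold acclimated cells. The efnb1 lncRNA had 20.3 and 13.6 FPKM, and the itgbl1 lncRNA 13.4 and 11.3 FPKM. These 3 differed by less than 2-fold, whereas the cntn4 lncRNA went from 4.32 to 25.5 FPKM, the highest cold value of all members, with a log2 ratio of 2.53. The summed FPKM of the 149 members was 306.9 in control and 258.6 in cold acclimated cells.

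In cold acclimated cells, lncRNAs at adhesion and guidance genes were more often lower than higher, and comparatively few stayed within 2-fold. Of the 149 members, 145 passed the filter. The 4 that did not lay between 0.445 and 0.486 FPKM in their higher group, and the lowest member past the filter had 0.509 FPKM. Above 0.5 FPKM were 124 members in control and 81 in cold acclimated cells (83.2% and 54.4%, against 85.6% and 64.6% of all lncRNAs). A transcript could pass by its higher group alone, which favours differences past 2-fold in either direction. The comparison lists passed the same filter. Among the 145, 76 were more than 2-fold lower in cold acclimated cells (52.4%, Wilson interval 44.3% to 60.4%), against 39.4% of all assembled lncRNAs past the filter and 36.3% of those at other named genes. More than 2-fold higher were 29 members (20%, interval 14.3% to 27.2%), against 13.3% of all lncRNAs and 13.7% of those at other named genes. The remaining 40 (27.6%) lay within 2-fold, compared with 47.3% of all lncRNAs. The 76 lower transcripts belonged to 49 genes and the 29 higher ones to 21 genes.

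The median log2 ratio of the members was -1.03 (95% interval of the median -1.32 to -0.68), while that of all lncRNAs past the filter was -0.63 and that of those at other named genes -0.57. With the overall shift of -0.63 taken out, the members had a median of -0.39. Of the 145, 55 were then more than 2-fold lower (37.9%) and 33 more than 2-fold higher (22.8%). On that scale 23.9% of all lncRNAs were more than 2-fold lower and 23.5% more than 2-fold higher. For those at other named genes the shares were 21.3% and 24.2%. The higher share of the members was thus close to both comparison lists once the shift was taken out. The quartiles of the members, -2.44 and 0.19, lay farther apart than those of all lncRNAs, -1.59 and 0.29. With FPKM summed over the members of each locus, 72 of 129 loci (55.8%) were more than 2-fold lower and 19 (14.7%) more than 2-fold higher, against 39.6% and 12.6% of the loci of the whole table. Taken per locus, without that shift taken out, the higher share was likewise close to that of the whole table. Such sums hold the listed lncRNAs only, not any other transcript of a locus. Transcripts at a gene share their source and these lists have no replicate error, so the differences between the lists were not tested.

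**Figure D1:**
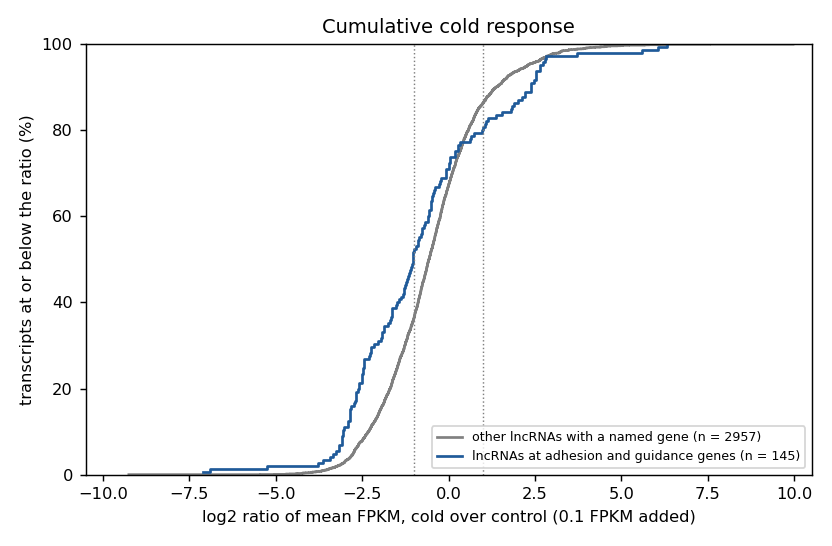
Cumulative share of transcripts (y axis, %) at or below each log2 ratio of cold over control mean FPKM (x axis) for the 145 members past the filter and the 2957 other lncRNAs with a named gene. Dotted lines mark 2-fold. The line of the members is at 52.4% at the lower 2-fold mark, where that of the others is at 36.3%, and 20% of the members lie beyond the upper mark against 13.7% of the others.

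The counts were also taken by exon number and by length. Of the members with 1 exon, 47 of 83 were more than 2-fold lower (56.6%), and of all lncRNAs with 1 exon 43.8% were. More than 2-fold higher were 16 of the 83 (19.3%, against 12.9%). Of the members with 2 or more exons, 29 of 62 were lower (46.8%), and of all such lncRNAs 29.1% were. Higher were 13 of the 62 (21.0%, against 14.4%). Among members of 1000 nt or more, 31 of 52 were lower (59.6%) and 11 were higher (21.2%), with 38.3% and 6.61% in all lncRNAs of that length. The 11 take in 4 transcripts at itgav, 2 at pcdh15a and 1 at epha3. The FPKM sums over the listed lncRNAs of those loci had log2 ratios of 0.13, -0.20 and -2.11, so none of these sums was more than 2-fold higher. Likewise, the 31 take in 2 transcripts at itgav and 1 at the ptprub locus MSTRG.8640. The sums there had log2 ratios of 0.13 and 0.03, so neither was more than 2-fold lower. From 300 nt to below 1000 nt, 26 of 57 members were lower (45.6%, interval 33.4% to 58.4%), against 39.2% of all lncRNAs, which lies inside that interval, and below 300 nt 19 of 36 were lower (52.8%, against 41.2%). Below 300 nt the order of the higher shares was the opposite, with 5 of 36 members (13.9%) and 23.1% of all lncRNAs. The members' intervals below 300 nt, 37.0% to 68.0% for lower and 6.1% to 28.7% for higher, hold both shares of all lncRNAs. All these intervals count transcripts as independent, so they test no difference between the lists.

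An FPKM of 0 in cold acclimated cells was listed for 16 members (10.7%), against 4.40% of all assembled lncRNAs, and in control cells for 7 (4.70%, against 2.94%). A listed 0 can be a failed estimate of the quantification, so the other group's value is given without a fold change. The 16 had a median length of 251.5 nt, 12 of them had a single exon, and their median in control cells was 0.622 FPKM, so most were near the filter. Without transcripts listed at 0, 60 of 123 members were more than 2-fold lower (48.8%, Wilson interval 40.1% to 57.5%) and 23 more than 2-fold higher (18.7%, interval 12.8% to 26.5%), against 37.5% and 12.0% of all lncRNAs above 0 in both groups.

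**Figure D2:**
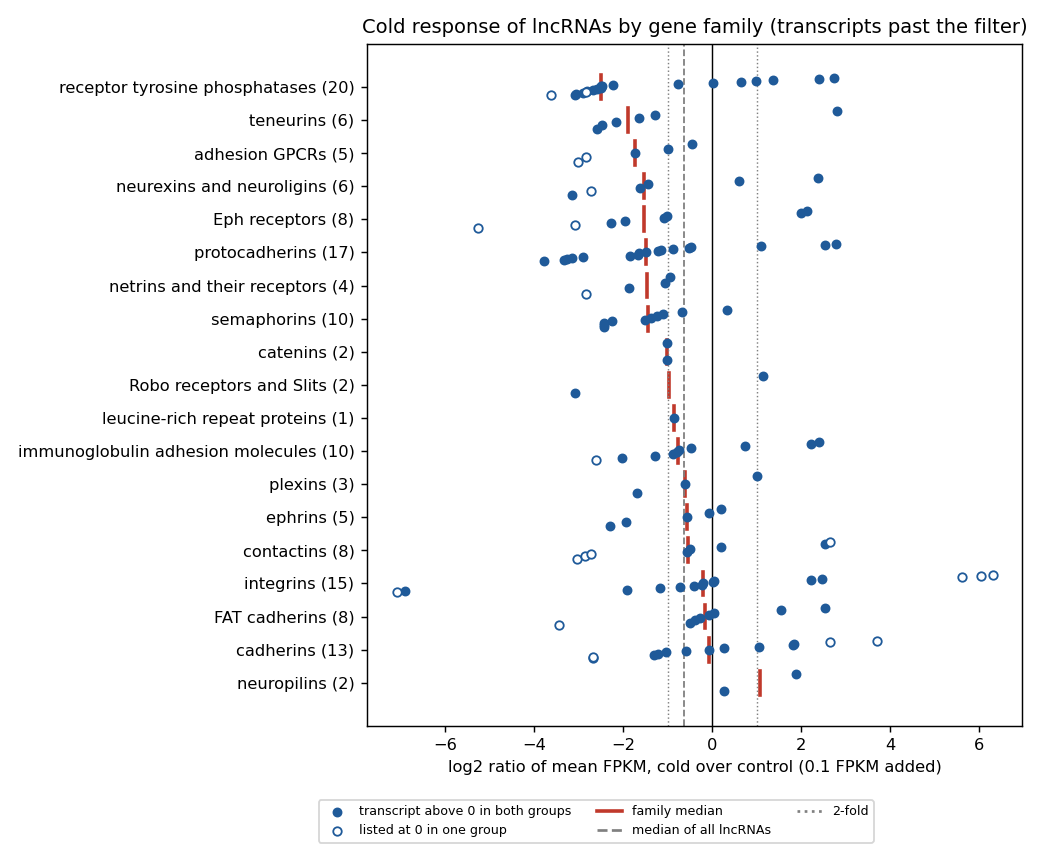
Log2 ratio of cold over control mean FPKM (x axis) for each of the 145 transcripts past the filter, by gene family, with the number of transcripts in parentheses. Red bars are family medians, the dashed line is the median of all lncRNAs (-0.63), dotted lines mark 2-fold, and open circles are transcripts listed at 0 in 1 group, whose place depends on the added 0.1 FPKM. Receptor tyrosine phosphatases have the lowest median over transcripts, -2.50, to which ptprga, ptprua and ptprsa gave several neighbouring loci each. The 10 semaphorin transcripts past the filter hold none more than 2-fold higher.

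The family counts that follow are small and stand against 39.4% lower and 13.3% higher over all lncRNAs past the filter. The contactin family takes in the cntnap genes of contactin-associated proteins, whose symbols begin alike. Taking out the overall shift turned 6 family medians from below to above 0, to 0.57 for cadherins, 0.46 for FAT cadherins, 0.43 for integrins, 0.10 for contactins, 0.06 for ephrins and 0.03 for plexins, while the other families kept their side.

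Among the adhesion molecules, protocadherins held 17 transcripts at 9 genes, of which 11 were more than 2-fold lower and 3 more than 2-fold higher. Their median log2 ratio was -1.49, or -0.86 with the overall shift taken out. At pcdh7b, a protocadherin of the non-clustered kind, 4 separate loci lay over 224.7 kb of chromosome 7 (63000668 to 63225366 in GRCz10). Their control means were between 1.49 and 3.13 FPKM and their cold means between 0.0771 and 0.220 FPKM. All 4 were lower in cold acclimated cells, their log2 ratios running from -3.78 to -2.90. MSTRG.28416.1, at 2.44 FPKM in control and 0.0850 FPKM in cold acclimated cells, had the lowest ratio. Of the clustered protocadherins, whose many isoforms give neurons a surface identity, 7 transcripts were named at 4 pcdh2 genes within 212.0 kb of chromosome 14 (1992346 to 2204327). Their control means ranged from 1.99 to 6.62 FPKM and their cold means from 0.568 to 3.27 FPKM. For all 7 the cold mean was below the control mean, and for 5 by more than 2-fold, with log2 ratios from -1.67 to -0.48. The last of these, MSTRG.5617.1 at pcdh2ab9 with 4.59 and 3.27 FPKM, and MSTRG.5629.1 at pcdh2g6 with 3.60 and 1.90 FPKM, stayed within 2-fold. Genes of this cluster are near-copies of each other, so reads can be divided among them and single values are uncertain. The pcdh2ab9 lncRNA, at -0.48, lay above the median of all lncRNAs. MSTRG.1777.1 at pcdh1g2, a clustered protocadherin gene on chromosome 10, had 1.40 and 0.314 FPKM, with a log2 ratio of -1.86.

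The 3 protocadherin transcripts that were higher are at pcdh15a and pcdh15b, the zebrafish copies of a protocadherin of the hair cell tip link. MSTRG.3568.1 at pcdh15b, with 1 exon of 581 nt on chromosome 12, had 0.283 FPKM in control and 2.52 FPKM in cold acclimated cells, with a log2 ratio of 2.78. At pcdh15a, MSTRG.5300.1 went from 0.231 to 1.81 FPKM and MSTRG.5300.2 from 1.77 to 3.89 FPKM. The third transcript of that locus, MSTRG.5300.5, went the other way, from 5.07 to 0.441 FPKM. Their sum was 7.07 FPKM in control and 6.14 FPKM in cold acclimated cells, so the locus as a whole differed by less than 2-fold.

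Cadherins had 14 transcripts at 9 genes. Of the 13 past the filter, 5 were more than 2-fold lower (38.5%, close to the 39.4% of all lncRNAs) and 5 more than 2-fold higher (38.5%, against 13.3%), and their median was -0.06, or 0.57 relative to all lncRNAs. Of the 5 higher ones, 3 transcripts at 2 loci were at cdh4, the gene of R-cadherin, on chromosome 11. MSTRG.2864.1 there had 0.356 FPKM in control and 1.499 FPKM in cold acclimated cells. The overlapping MSTRG.2864.2 and the separate MSTRG.2867.1 were listed at 0 in control cells and had 1.21 and 0.529 FPKM in cold acclimated cells. The remaining members at cdh4 stayed within 2-fold, with 3.84 and 4.62 FPKM for MSTRG.2863.1 and 0.750 and 0.713 FPKM for MSTRG.2866.1. MSTRG.5331.1 at cdh23, the partner of protocadherin 15 in the tip link, had 0.452 FPKM in control and 1.88 FPKM in cold acclimated cells. At cdh16, MSTRG.28105.1 had 0.833 and 1.83 FPKM, just past 2-fold. The other lncRNA at cdh16, MSTRG.28107.1, had 0.538 FPKM in control cells and was listed at 0 in cold acclimated cells. Lower transcripts lay at cdh13, an anchored cadherin without a cytoplasmic part, with 2.71 and 1.03 FPKM, and at cdh15, the cadherin of muscle cells, with 2.66 and 1.08 FPKM. At cdh6, MSTRG.13010.1 had 0.544 FPKM in control cells and was listed at 0 in cold acclimated cells. The lncRNA at cdh2, the gene of N-cadherin, had 3.30 and 2.15 FPKM and stayed within 2-fold.

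The 8 FAT cadherin transcripts all lay at fat3a, over 273.7 kb of chromosome 15, and 5 of them stayed within 2-fold. The loci MSTRG.7577 and MSTRG.7578 occupy the same 8.335 kb and hold 6 of them. MSTRG.7577.4 went from 0.0994 to 1.06 FPKM, but the sum of its locus was 3.70 FPKM in control and 4.09 FPKM in cold acclimated cells. The sums at MSTRG.7578 were 3.86 and 3.61 FPKM. MSTRG.7576.1, a transcript of 202 nt, had 0.986 FPKM in control cells and was listed at 0 in cold acclimated cells. The lncRNAs at ctnna1, the gene of alpha-catenin, and ctnnal1, an alpha-catenin relative, had 1.03 and 1.18 FPKM in control and 0.455 and 0.529 FPKM in cold acclimated cells, just past 2-fold. MSTRG.18742.1 at ctnna1 lies inside the 222.2 kb interval of MSTRG.18741.1, which is named for lrrtm2 and had 1.22 and 0.624 FPKM. In RefSeq (GRCz12tu) the gene lrrtm2, which encodes a synaptic leucine-rich repeat protein, lies within ctnna1.

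Among integrins, the locus at itgav held 8 of the 15 transcripts. The gene encodes integrin alpha V, a receptor chain for vitronectin and fibronectin. All 8 transcripts of MSTRG.30077 have 3 exons, start at the same base of chromosome 9 (11624785) and end within 77 nt of each other, with lengths from 1316 to 1391 nt. In control cells the highest were MSTRG.30077.5 with 13.5 FPKM and MSTRG.30077.8 with 11.9 FPKM, of which the former was listed at 0 and the latter had 0.000525 FPKM in cold acclimated cells. In cold acclimated cells the highest were MSTRG.30077.6 with 16.2 FPKM, against 3.40 FPKM in control cells, and MSTRG.30077.9 with 7.80 FPKM. The latter, MSTRG.30077.11 and MSTRG.30077.12 were listed at 0 in control cells, and the last had 6.52 FPKM in cold acclimated cells. The sum over the 8 transcripts was 40.1 FPKM in control and 43.9 FPKM in cold acclimated cells, with a log2 ratio of 0.13. The 3 highest and the 2 lowest log2 ratios of all members come from this locus, while the sum of its 8 transcripts differed by less than 2-fold. Reads shared by transcripts this alike can be assigned to any of them by the quantification, and its part in these values was not tested.

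**Figure D3:**
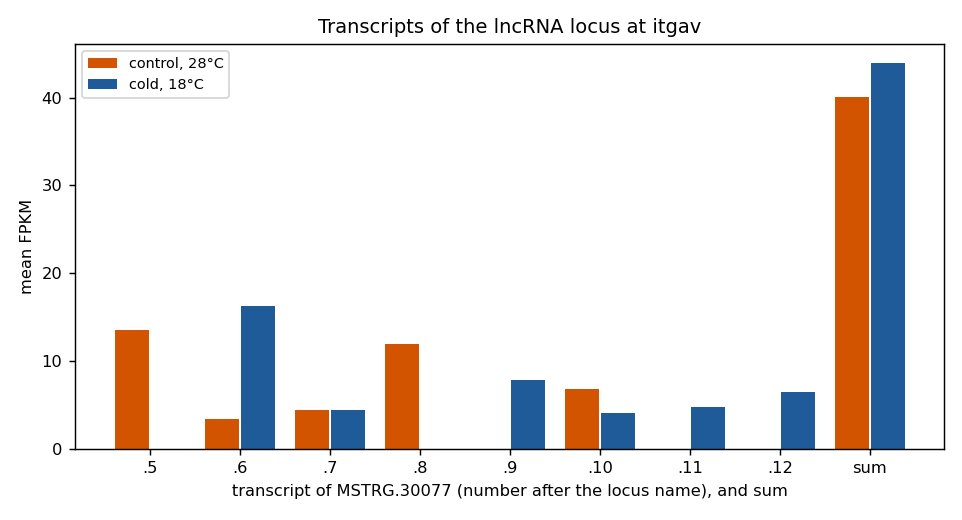
Mean FPKM (y axis) of the 8 transcripts of locus MSTRG.30077 at itgav and of their sum (x axis) in control cells (orange) and cold acclimated cells (blue), with no error bars because a single mean per group was deposited. Single transcripts differ widely, from 13.5 FPKM to a listed 0 for MSTRG.30077.5 and from 3.40 to 16.2 FPKM for MSTRG.30077.6, and the sums are 40.1 and 43.9 FPKM.

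Of the 15 integrin transcripts, 4 were more than 2-fold lower (26.7%, against 39.4% of all lncRNAs). Those more than 2-fold higher were 5 (33.3%, against 13.3%). At itgav lay 2 of the lower and 4 of the higher ones. The members at itga9, itgb8 and itgbl1 stayed within 2-fold. MSTRG.5426.1 at itga9 had 2.62 and 2.26 FPKM, MSTRG.11287.1 at itgb8 had 0.802 and 0.815 FPKM, and MSTRG.30522.1 at itgbl1 had 3.50 and 2.60 FPKM. Lower in cold acclimated cells were MSTRG.8137.1 at itga10, the alpha chain of a collagen receptor, with 0.867 and 0.154 FPKM, and MSTRG.8488.1 at itga8 with 0.554 and 0.191 FPKM. MSTRG.13351.1 at itgb1b.1, a copy of the integrin beta 1 chain, had 0.0227 FPKM in control and 0.575 FPKM in cold acclimated cells.

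Receptor tyrosine phosphatases, which remove phosphate from tyrosines at cell contacts and in growth cones, were the largest family, with 20 transcripts at 8 genes. Of these, 13 were more than 2-fold lower and 3 more than 2-fold higher, with a median log2 ratio of -2.50, or -1.87 relative to all lncRNAs. Most of the lower ones were neighbouring loci at ptprga, ptprua and ptprsa, which weigh most in that median. By gene, the median locus log2 ratios were -2.51, -2.91 and -2.53 at these. At ptprub, ptprea, ptprq and ptprna they were 0.01, 1.37, 2.39 and 2.74. MSTRG.28004.1 at ptprja, a single-exon transcript of 266 nt, had 0.617 FPKM in control cells and was listed at 0 in cold acclimated cells. At ptprga, 5 loci lay over 116.1 kb of chromosome 11 (5349605 to 5465719). Their control means were from 1.07 to 3.26 FPKM and their cold means from 0.106 to 0.491 FPKM, and all 5 were lower, with log2 ratios from -3.08 to -2.24. The 3 loci at ptprua on chromosome 19 (16367158 to 16483790) had control means from 1.44 to 1.85 FPKM and cold means from 0.105 to 0.239 FPKM, with log2 ratios from -3.05 to -2.51. At ptprsa, a receptor for proteoglycans on axons, 3 neighbouring loci on chromosome 22 had 1.29, 0.945 and 1.63 FPKM in control and 0.116, 0.0885 and 0.187 FPKM in cold acclimated cells. MSTRG.16237.1, a transcript of 205 nt also named at ptprsa but at lower coordinates, was not lower, with 0.292 and 0.671 FPKM. In contrast, the paralogue of ptprua, ptprub, had no locus sum beyond 2-fold. Its MSTRG.8640.2 had 1.14 FPKM in control cells and was listed at 0 in cold acclimated cells, but the nearly identical MSTRG.8640.1 had 2.00 and 3.21 FPKM, and their sums were 3.14 and 3.21 FPKM. Higher in cold acclimated cells were MSTRG.4289.1 at ptprea with 1.27 and 3.44 FPKM, MSTRG.10365.1 at ptprq with 0.197 and 1.46 FPKM, and MSTRG.30018.1 at ptprna with 0.0581 and 0.954 FPKM. The last gene encodes a phosphatase-like protein of secretory granules and is in the group by its symbol only.

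Among the guidance cues, semaphorins had mostly lower cold means. Of 11 transcripts at 8 genes, 10 passed the filter, 8 were more than 2-fold lower and none more than 2-fold higher, and the median was -1.45, or -0.81 relative to all lncRNAs. At sema3gb, a secreted class 3 semaphorin, MSTRG.29175.1 had 6.46 FPKM in control and 1.11 FPKM in cold acclimated cells, and MSTRG.29176.1 had 1.19 and 0.137 FPKM. At sema4c, a membrane-bound semaphorin, MSTRG.24148.1 had 2.87 and 0.447 FPKM and MSTRG.24149.1 had 1.44 and 0.223 FPKM. The lncRNAs at sema3aa, sema3c and sema3d had 1.36, 1.57 and 1.09 FPKM in control and 0.514, 0.481 and 0.361 FPKM in cold acclimated cells. MSTRG.4668.1 at sema4ga stayed within 2-fold, with 1.27 and 0.757 FPKM, and MSTRG.30641.1 at sema5ba, with 0.682 and 0.884 FPKM, was the semaphorin transcript whose cold mean was above its control mean.

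The Slits, repellent ligands of Robo receptors, had 2 transcripts that differed in direction. MSTRG.467.1 at slit2, with 1 exon of 3901 nt on chromosome 1, had 4.201 FPKM in control and 0.409 FPKM in cold acclimated cells, with a log2 ratio of -3.08. MSTRG.4459.1 at slit1a, with 1 exon of 1089 nt on chromosome 13, had 5.19 and 11.5 FPKM, a log2 ratio of 1.13. Ephrins had 5 transcripts, with 2 more than 2-fold lower (40%, close to the 39.4% of all lncRNAs) and none more than 2-fold higher. Besides the abundant transcript, MSTRG.24695.1 at efnb1 had 1.76 FPKM in control and 0.387 FPKM in cold acclimated cells, and it lies inside the interval of the former. MSTRG.15426.3 at efna5a, a lipid-anchored ephrin, had 3.08 and 2.90 FPKM. The lncRNA at ntn1b, a netrin, had 1.42 and 0.688 FPKM and stayed within 2-fold.

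Among the receptors for these cues, Eph receptors had 8 transcripts, of which 6 were more than 2-fold lower and 2 more than 2-fold higher. At epha3, MSTRG.30168.2, the transcript with primers above, had 3.75 FPKM in control cells and was listed at 0 in cold acclimated cells. MSTRG.30168.1 shares its start and had 0.109 and 0.814 FPKM. Their sums were 3.85 and 0.814 FPKM, a log2 ratio of -2.11, so the locus was lower although the single-exon transcript was higher. The separate loci MSTRG.30169.1 and MSTRG.30171.1 at epha3 had 2.20 and 1.88 FPKM in control and 0.493 and 0.310 FPKM in cold acclimated cells. The lncRNAs at epha7 and ephb2a had 1.68 and 1.28 FPKM in control and 0.737 and 0.579 FPKM in cold acclimated cells. MSTRG.3190.1 at epha8 had 0.281 and 1.43 FPKM and was the higher Eph transcript outside epha3. UNC5 receptors bind netrins, and 3 loci at unc5a on an unplaced scaffold were all more than 2-fold lower, MSTRG.31915.1 among them with 0.618 FPKM in control cells and a listed 0 in the cold. The most abundant of them, MSTRG.31917.1, had 3.11 FPKM in control and 1.43 FPKM in cold acclimated cells. Neuropilins had 2 transcripts, neither of which was lower, and MSTRG.30141.1 at nrp2b had 0.156 and 0.845 FPKM. Plexins, the signalling receptors for semaphorins, had 3, with 1.77 and 0.480 FPKM for MSTRG.28858.1 at plxnb3, 0.947 and 0.588 FPKM for MSTRG.26131.1 at plxnb1b, and 0.242 and 0.585 FPKM for its neighbour MSTRG.26130.1.

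Teneurins, large transmembrane proteins that pair across synapses, were represented mainly by tenm3, with 6 loci over 300.1 kb of chromosome 1 (38669803 to 38969931). For 5 of them the control means were from 0.984 to 3.98 FPKM and the cold means from 0.142 to 0.629 FPKM, with log2 ratios from -2.60 to -1.28. The locus with the highest coordinate, MSTRG.729.1 with 3 exons, went the other way, with 0.124 FPKM in control and 1.48 FPKM in cold acclimated cells, with a log2 ratio of 2.81. Adhesion G protein-coupled receptors had 5 transcripts, 4 of them more than 2-fold lower. Of these, MSTRG.29470.1 at adgra2 and MSTRG.2564.1 at adgrl2a had 0.716 and 0.618 FPKM in control cells and were listed at 0 in cold acclimated cells. MSTRG.1222.1 at adgre5b.3, with 1.72 and 0.806 FPKM, was just past 2-fold. MSTRG.12315.1 at adgrl2b.1, a latrophilin that binds teneurins, had 1.08 and 0.255 FPKM.

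Neurexins and neuroligins had 6 transcripts, 4 of them more than 2-fold lower and 1 more than 2-fold higher. MSTRG.3939.1 at nrxn1a, a presynaptic neurexin, has 2 exons in 750 nt on chromosome 12 and had 2.099 FPKM in control and 11.3 FPKM in cold acclimated cells, with a log2 ratio of 2.38. In contrast, the 2 lncRNAs at nrxn2b had 0.995 and 1.36 FPKM in control and 0.0230 and 0.375 FPKM in cold acclimated cells, and MSTRG.9475.1 at nrxn3a had 1.06 and 0.328 FPKM. At negr1, an anchored immunoglobulin protein that promotes neurite growth, MSTRG.26470.1, the transcript with primers above, had 0.512 FPKM in control and 3.13 FPKM in cold acclimated cells, and its log2 ratio was 2.40. The neighbouring MSTRG.26471.1 had 1.83 and 8.83 FPKM and a log2 ratio of 2.21. A further locus at negr1, MSTRG.26469.1, had 0.639 and 0.325 FPKM. Of the 8 transcripts at contactin and cntnap genes past the filter, 3 were more than 2-fold lower and 2 more than 2-fold higher. At cntn4, MSTRG.26712.1 was the abundant higher transcript given above, while MSTRG.26710.1 had 0.726 FPKM in control cells and was listed at 0 in cold acclimated cells, and MSTRG.26715.1 had 0.509 and 0.330 FPKM. Of the 3 lncRNAs at cntnap2a, 2 had 0.562 and 0.625 FPKM in control cells and were listed at 0 in cold acclimated cells. MSTRG.20983.1 at cntnap1, a transcript of 208 nt, was listed at 0 in control cells and had 0.526 FPKM in cold acclimated cells. Immunoglobulin adhesion molecules had 10 transcripts, with 3 more than 2-fold lower (30%, against 39.4% of all lncRNAs). The 2 more than 2-fold higher (20%, against 13.3%) were at negr1. Among the lower ones, MSTRG.8354.1 at cadm4 had 0.511 FPKM in control cells and was listed at 0 in cold acclimated cells. MSTRG.15518.1 at ncam1a had 3.03 and 2.16 FPKM, MSTRG.30606.1 at ncam2 had 0.877 and 1.54 FPKM, and the 2 lncRNAs at cadm1b, a synaptic and epithelial adhesion molecule, had 0.904 and 1.18 FPKM in control and 0.312 and 0.212 FPKM in cold acclimated cells.

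Separate lncRNA loci named at the same gene were compared with each other. With FPKM summed over the members of each locus, 24 of the genes had at least 2 loci past the filter. All loci of a gene differed from control in the same direction at 13 of the 24 (54.2%), each time with the lower mean in cold acclimated cells, and at 239 of 416 (57.5%) other named genes with at least 2 loci, so a shared direction as such was not more frequent. At 9 of these 24 (37.5%) every locus was more than 2-fold lower, against 69 of the 416 (16.6%). Of single loci, 55.8% of the members' and 37.1% of those at other named genes were more than 2-fold lower. An excess within genes over these shares was not tested. The 9 genes were cadm1b, epha3, nrxn2b, pcdh7b, ptprga, ptprua, sema3gb, sema4c and unc5a, named after their values were seen. No member gene had all of its loci more than 2-fold higher, against 9 of the 416. At 3 of the 24 genes, namely cdh16, cntn4 and tenm3, loci differed by more than 2-fold in opposite directions (12.5%, against 37 of the 416, or 8.89%). Among genes with at least 3 loci these counts were 2 of 14 (14.3%) and 19 of 136 (13.97%). The lower loci at cdh16 and cntn4 had 0.538 and 0.726 FPKM in control cells and were listed at 0 in cold acclimated cells. Their log2 ratios therefore depend on the added 0.1 FPKM. Neighbouring loci may be pieces of the same transcription unit, which was not tested, so they are not independent observations.

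**Figure D4:**
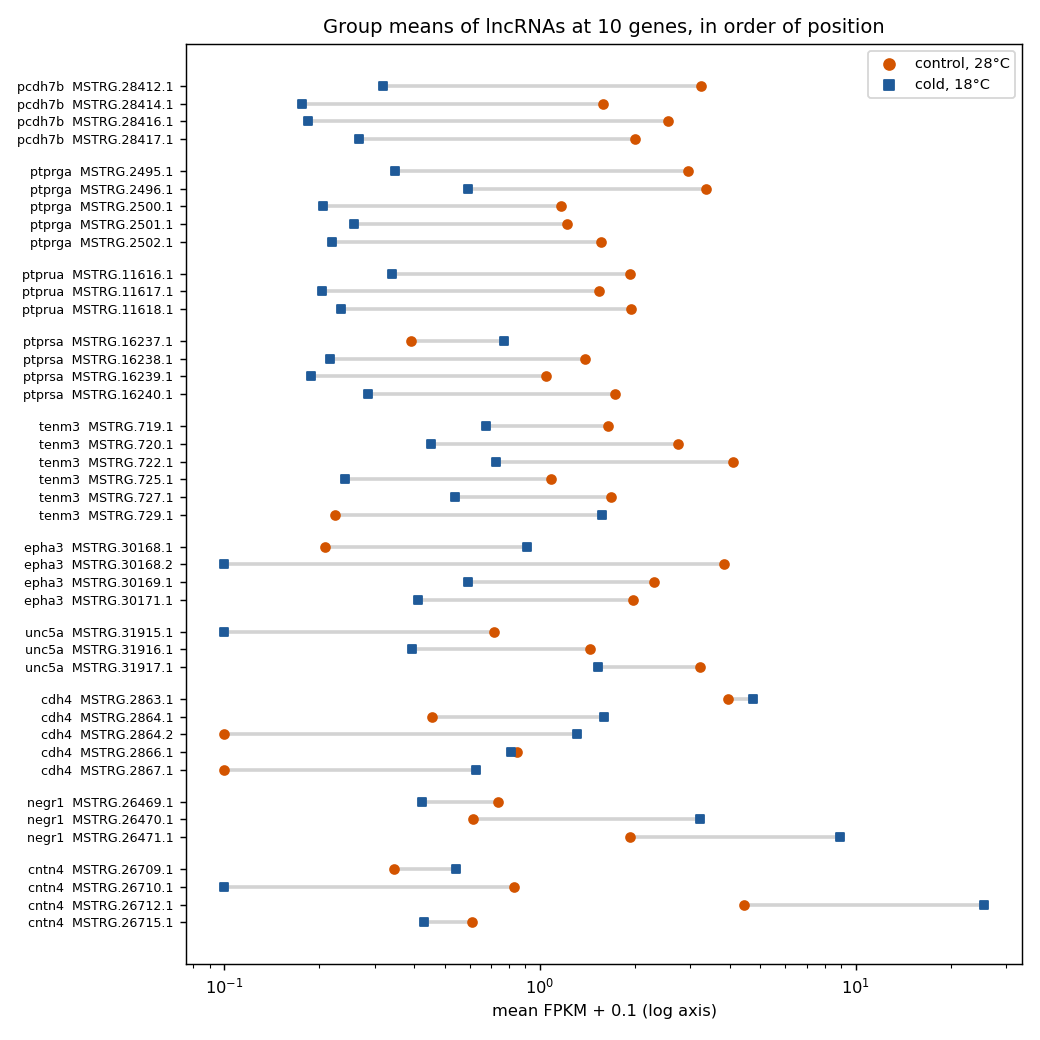
Mean FPKM plus 0.1 (x axis, log scale) of each lncRNA at 10 genes (y axis, in order of position within the gene) in control cells (orange circles) and cold acclimated cells (blue squares), and a point at 0.1 is listed at 0. Every lncRNA at pcdh7b, ptprga, ptprua and unc5a is lower in cold acclimated cells, as are 5 of the 6 at tenm3, and 2 of the 3 at negr1 are higher.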

How the data were processed

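Per the labels and the study's methods, the authors aligned reads of ribosomal RNA-depleted, stranded libraries with HISAT2 2.1.0 to GRCz10, assembled and quantified transcripts with StringTie 1.3.3, and kept unannotated transcripts of low coding potential above 0.5 FPKM in at least 1 sample. Transcripts were compared with Ensembl 88 by gffcompare 0.10.1. The deposited FPKM values are a single mean per group. The table's columns with the authors' own comparison (fold change on the log2 scale, p-value, FDR, direction) were not used. Exon number, length and position were taken over from the same deposited table, and its intervals count from 1 with both ends included.

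Members were taken by a case-sensitive match of gene names, and 83 of the 84 names match a RefSeq symbol (GRCz12tu), which was used for names and gene order only. Log2 ratios use a pseudocount of 0.1 FPKM and a filter above 0.5 FPKM in either group or both, with a 2-fold threshold. This calculation was run on simulated data. The planted differences were far beyond 2-fold and no reads were shared between transcripts, so the run does not show how reliable calls near 2-fold are. Named lncRNAs were drawn from those in the study's text or primer table, the 10 largest differences in each direction and the 10 most abundant. Also drawn on were the extremes of each family, the longest, those with most exons and genes with 4 or more transcripts. Not every lncRNA of these lists is named. Others were named after their values were seen. Members, families and lists were chosen with earlier results of these data known. Alternatives covered pseudocount, filter, threshold, scaling, exon number, loci and names. The calculations ran in Python 3.11.15 with scipy 1.17.1, pandas 2.3.3 and numpy 2.4.6, and plots were drawn with matplotlib 3.10.9.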

Additional observations from a re-analysis of the deposited data

How the results depend on the processing

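The members' median log2 ratio stayed below 0 under every alternative run, from -1.17 with single-exon transcripts to -0.39 with the overall shift taken out. With that shift taken out, 58.6% of the members were lower than the median lncRNA, and the median of lncRNAs at other named genes turned from -0.57 to 0.068. With a pseudocount of 1 FPKM, 27 members were more than 2-fold lower and 14 more than 2-fold higher, with medians of -0.55 for members and -0.34 for other named genes. Above 1 FPKM the latter was -0.46. With 1 exon, 47 of 83 members were lower and 16 higher and the other named genes had a median of -0.83. With 2 or more exons, 29 of 62 members were lower and 13 higher, and that median was -0.23. These smaller counts partly reflect fewer transcripts, and the shares over all lncRNAs by exon number are given above. Beyond 4-fold, 45 of the 145 members were lower. Added after seeing the data were sums per locus, with 19 loci higher, and 1 value per gene, with 42 genes lower and 15 higher of 81. The share over all lncRNAs was not computed for the pseudocount of 1 FPKM, the 4-fold threshold or 1 value per gene. These counts therefore describe the members only and show no difference from the other lncRNAs. Leaving out ctnnbl1 and ctnnbip1 removed no member and so tests nothing. Of the other 68 alternative values, 50 stayed within 1.5 times the reported count or inside the 95% interval of the reported value, a wide tolerance that takes in the 55 lower members with the shift taken out. No paired analysis was possible because only a mean per group was deposited, and for the same reason no culture could be left out. What these means cannot show is any difference against replicate error, or depth.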

Other observations

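Several adhesion genes lie outside the name rule, and their lncRNAs were looked at after the values of the table were seen, as a description only. The list held 29 transcripts at 17 genes, all past the filter, of which 16 had a cold mean more than 2-fold below the control mean (55.2%, against 39.4% of all lncRNAs) and 1 more than 2-fold above (3.45%, against 13.3%), with a median log2 ratio of -1.19. At flrt2, whose product binds latrophilins and UNC5 receptors, 3 of 4 transcripts were more than 2-fold lower, with MSTRG.13985.1 at 1.46 FPKM in control and 0.215 FPKM in cold acclimated cells. At chl1b and nfasca, genes of the L1 family of axonal adhesion molecules, 4 of 5 were more than 2-fold lower, and MSTRG.26707.1 at chl1b had 4.77 and 7.63 FPKM. The nectin genes pvrl2l and pvrl3b each had a transcript that was more than 2-fold lower. The transcript that was higher, MSTRG.7745.1 at igsf11, a homophilic adhesion molecule, has a single exon of 409 nt on chromosome 15 and had 2.05 FPKM in control and 25.3 FPKM in cold acclimated cells, its log2 ratio being 3.56. The upper-case names CDH22 and ADGRL3 were also left out by the rule. At CDH22, MSTRG.26972.1 had 2.67 FPKM in control and 0.713 FPKM in cold acclimated cells. MSTRG.26973.1 at CDH22 and MSTRG.28600.1 at ADGRL3 stayed within 2-fold, with log2 ratios of -0.303 and 0.850. Of the 4 transcripts at dachsous cadherin genes, 1 was more than 2-fold lower. The 4 at immunoglobulin superfamily genes, igsf11 among them, likewise held 1 that was more than 2-fold lower.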
